A study of Mus musculus with 12 samples.

Results

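Hearts injected with a hydrogel were compared with hearts injected with saline, over all 12 of 12 RNA-seq libraries of the series. Left ventricles of healthy C57BL/6J mice were taken 3 days after 2 injections of 10 µl into the heart muscle. The 4 control libraries had received phosphate-buffered saline (PBS) and no drug. The 8 hydrogel libraries were 4 given Upy-PEG with no drug and 4 given Upy-PEG carrying antimiR-195, labelled Upy-PEG_antimiR-195 and called antimiR-195 libraries here. Upy-PEG is poly(ethylene glycol) whose chains are joined through hydrogen-bonding ureidopyrimidinone groups into a gel. AntimiR-195 is an oligonucleotide that pairs with and blocks the microRNA miR-195. The question was which genes differed with the material itself, whether or not it carried the antimiR. A gene was called separated upward where the lowest of the 8 hydrogel values stood above the highest of the 4 PBS values, and separated downward where the highest hydrogel value stood below the lowest PBS value. Of 38293 genes in the count table, 14770 had enough reads to be tested, and 333 of these were separated (2.25%): 153 upward (1.04%) and 180 downward (1.22%). The labels do not say that each library came from a separate animal, so p-values measure the spread between these samples, which may in part be technical.

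A material placed in tissue draws in monocytes, which become macrophages. Macrophages take up debris and foreign matter into lysosomes, can fuse into giant cells, and release chemokines that bring in further leukocytes. Heart muscle cells under wall stress make the natriuretic peptides, which are stored and secreted hormones, and fibroblasts around an injury lay down matrix. In bulk tissue, fewer cells of a type and less RNA per cell cannot be told apart.

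Counts on genes totalled 22.35 to 30.28 × 10⁶ per library, with 18668 to 19740 genes detected in each. Mitochondrially encoded genes took 12.34% of counts in PBS replicate 1 and 14.82% to 21.71% elsewhere. On the first principal component (35.1% of variance) antimiR-195 replicates 2 and 3 stood at -60.2 and -40.7 and the others between -8.48 and 33.4. Long genes were low against short genes in both of these libraries, with slopes of the log2 deviation on log2 gene length of -0.229 and -0.135 against -0.0415 to 0.122 elsewhere. On the second component (22.2%) Upy-PEG replicate 1 stood apart at -47.5. The 30 cardiomyocyte genes of a fixed list summed to between 124663 and 143055 CPM (counts scaled to a common library size) with PBS. Every gene of that list had reads in at least 1 library.

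Log2 fold changes below are the mean of both hydrogel group means minus the PBS mean, with n = 8 against 4, and CPM are scaled by TMM, which corrects for library composition. With edgeR's quasi-likelihood test and Benjamini-Hochberg adjustment over 14770 genes, 0 genes (0.0%) passed an adjusted p of 0.05, so every fold change here is a value that did not pass. The smallest adjusted p was 0.118. At an unadjusted p under 0.05, 2251 genes (15.2%) differed, 1281 higher (8.67%) and 970 lower (6.57%) with hydrogel. These shares, and those of the separated genes, are the background for the list counts below. The higher genes made up 56.9% of these, and 68.0% where libraries were scaled by their totals alone. Leaving out PBS replicate 2 gave 746 higher and 430 lower, leaving out PBS replicate 3 gave 599 lower, and leaving out antimiR-195 replicate 4 gave 1540 lower. DESeq2 on the same counts called 380 genes (2.57%), 290 higher (1.96%) and 90 lower (0.609%). Limma voom with sample weights called 4 genes, Nppa, Wfdc17, Apobec1 and Per1.

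Natriuretic peptides and other stress genes of heart muscle were higher with hydrogel in both groups. Nppa (ENSMUSG00000041616, chromosome 4, 148000722 to 148002079), the gene of atrial natriuretic peptide (ANP), gave 227, 363, 371 and 325 CPM in the PBS libraries, 1405, 979, 769 and 748 with Upy-PEG and 591, 1298, 625 and 995 with antimiR-195. The lowest hydrogel value was 1.59 times the highest PBS value, the widest gap of all separated genes. Its log2 fold change was 1.52 ± 0.249 (SE; adjusted p by edgeR = 0.135), 1.60 in Upy-PEG and 1.45 in antimiR-195 libraries against PBS. Nppb (ENSMUSG00000029019, chromosome 4, 147985788 to 147987205), the gene of brain natriuretic peptide, lies 13.517 kb from Nppa with no tested gene between them. It measured 188, 128, 166 and 98.04 CPM in the PBS libraries, 269, 237, 248 and 201 with Upy-PEG and 275, 643, 301 and 378 with antimiR-195. Upy-PEG replicate 4 came nearest to the PBS values and antimiR-195 replicate 2 was the farthest above them. The log2 fold change of Nppb was 1.09 ± 0.2296 (SE; adjusted p by edgeR = 0.172), 0.72 with Upy-PEG and 1.46 with antimiR-195. The difference between the hydrogel groups, 0.74 ± 0.253 (SE), had an unadjusted p of 0.011 and an edgeR adjusted p of 0.364.

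Tnfrsf12a (ENSMUSG00000023905, chromosome 17, 23675445 to 23677468), the receptor of the cytokine TWEAK, measured 23.1, 24.9, 27.6 and 22.7 CPM in the PBS libraries, 42.05, 34.8, 42.2 and 33.2 with Upy-PEG and 41.7, 61.2, 30.8 and 53.2 with antimiR-195. PBS values lay within a narrow band, and all 8 hydrogel values were above it, for a log2 fold change of 0.78 ± 0.157 (SE; adjusted p by edgeR = 0.172). In the list of 18 cardiac stress genes tested, 6 were separated upward and 0 downward: Nppa, Nppb, Tnfrsf12a, Fhl1, Atf3 and Uck2. At an unadjusted p under 0.05, 12 of the 18 were higher and 0 lower, and the list's median log2 fold change was 0.54 against -0.005 over all genes. Fhl1, a LIM domain protein of the sarcomere, stood at 136 to 161 CPM in the PBS libraries and 173 to 249 in the hydrogel libraries. Atf3, a transcription factor made under stress, ranged over 3.52 to 6.48 CPM in the PBS libraries and 6.501 to 14.01 in the hydrogel libraries (log2 fold change 0.83 ± 0.237, SE). Uck2, which phosphorylates uridine and cytidine, ranged over 21.2 to 29.6 CPM in the PBS libraries and 29.9 to 54.4 in the hydrogel libraries. Gdf15, a stress-induced cytokine, was higher by 1.17 and Rcan1, an inhibitor of calcineurin, by 0.64 on the log2 scale, but neither was separated. Myh7, the slow myosin heavy chain often used beside the natriuretic peptides as a stress marker, gave 0.19 ± 0.317 (SE; adjusted p by edgeR = 0.792), and Ankrd1 gave 0.21 ± 0.1901 (SE; adjusted p by edgeR = 0.598). Myh6, the main myosin heavy chain of the adult mouse ventricle, gave -0.41 ± 0.144 (SE; adjusted p by edgeR = 0.227), with its highest hydrogel value, 29742, above the lowest PBS value.

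**Figure D1:**
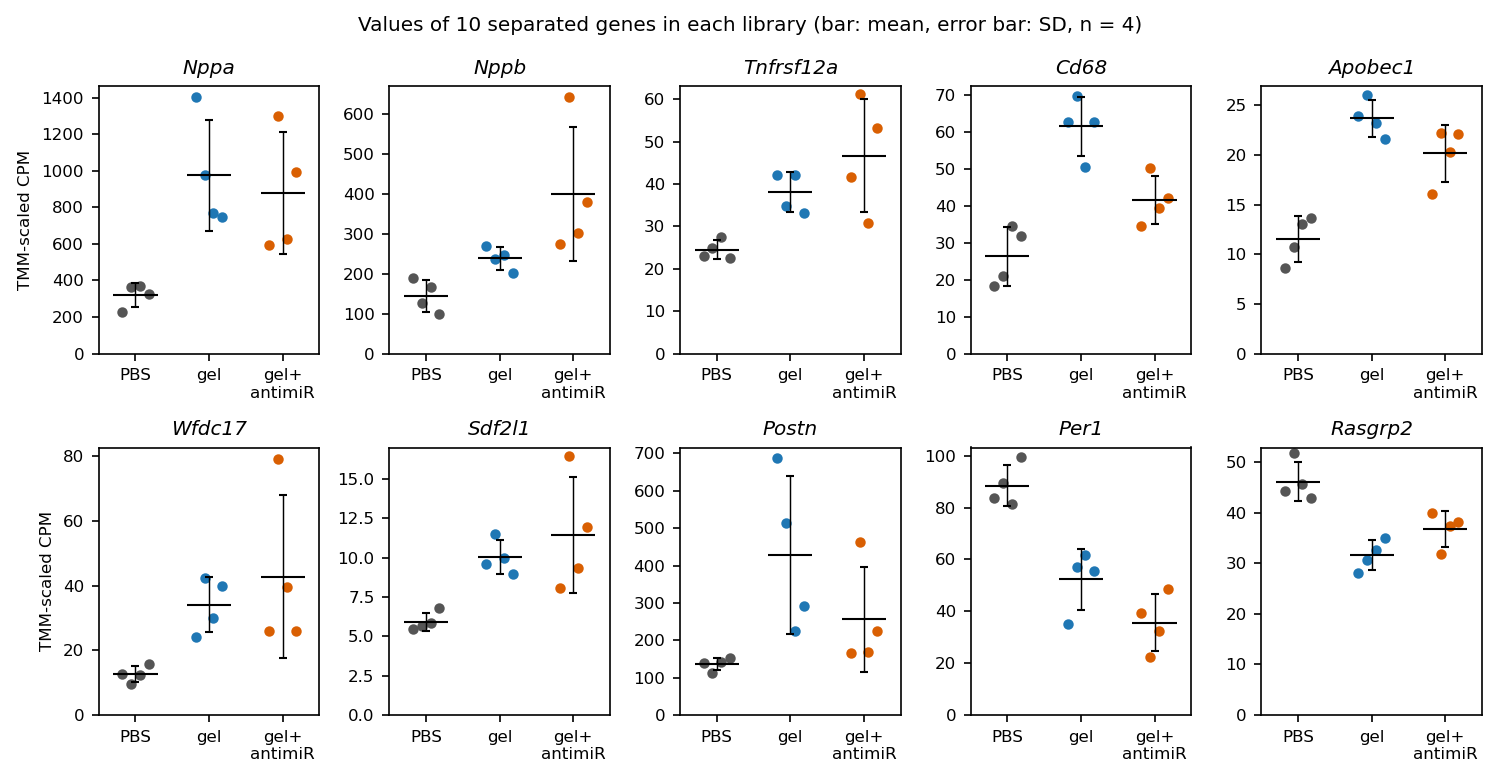
TMM-scaled CPM (vertical axes, each starting at 0) of 10 separated genes in each library, by group: PBS, Upy-PEG (gel) and Upy-PEG with antimiR-195 (gel+ antimiR). Points are libraries, horizontal bars group means and error bars SD (n = 4); in every panel the 8 hydrogel points lie on one side of the 4 PBS points, lower for Per1 and Rasgrp2 and higher for the others, and the Nppa points with hydrogel are all at least 591 against at most 371 with PBS.

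Macrophage genes formed a further group of separated genes. Cd68 (ENSMUSG00000018774, chromosome 11, 69664213 to 69666153), a macrophage glycoprotein of lysosomal membranes, gave 18.1, 20.997, 34.4 and 31.8 CPM in the PBS libraries, 62.6, 69.7, 50.5 and 62.6 with Upy-PEG and 34.6, 50.04, 39.4 and 42.03 with antimiR-195. The nearest hydrogel value, in antimiR-195 replicate 1, exceeded the highest PBS value by less than 1%, with a ratio of 1.005. Its log2 fold change was 0.94 ± 0.172 (SE; adjusted p by edgeR = 0.172), 1.22 with Upy-PEG and 0.66 with antimiR-195. On the scale of library totals alone, Cd68 was not separated. Wfdc17 (ENSMUSG00000069792, chromosome 11, 83703991 to 83706268), a small WAP domain protein of myeloid cells, measured 12.8, 9.71, 12.5 and 15.8 CPM in the PBS libraries, 24.2, 42.5, 30.04 and 39.9 with Upy-PEG and 25.9, 79.3, 39.7 and 25.97 with antimiR-195. The lowest hydrogel value was 1.53 times the highest PBS value, and antimiR-195 replicate 2 was well above every other library. Its log2 fold change was 1.59 ± 0.296 (SE; adjusted p by edgeR = 0.172). Apobec1 (ENSMUSG00000040613, chromosome 6, 122577792 to 122602444), a cytidine deaminase that edits RNA, had the smallest p of all genes and measured 8.6004, 10.8, 13.1 and 13.6 CPM in the PBS libraries, 23.9, 26.1, 23.2 and 21.6 with Upy-PEG and 16.1, 22.2, 20.3 and 22.1 with antimiR-195. Its log2 fold change was 0.93 ± 0.134 (SE; adjusted p by edgeR = 0.118), with 1.04 and 0.81 in the Upy-PEG and antimiR-195 groups. The unnamed gene ENSMUSG00000089672 was separated upward as well, with a log2 fold change of 1.09 ± 0.172 (SE; adjusted p by edgeR = 0.135).

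In the macrophage identity list, 16 of 22 tested genes were higher and 1 lower at an unadjusted p under 0.05, and 2 were separated, Cd68 and Ms4a7. Over all genes 8.67% were higher, 6.57% lower and 1.04% separated upward. The median log2 fold change of the list was 0.64, with 0.81 for Upy-PEG and 0.61 for antimiR-195. Lyz2, Mpeg1 and Ctss, which encode lysozyme, perforin-2 and cathepsin S, were higher by 0.88, 1.07 and 1.08 without separation. Cd163, a scavenger receptor of resident macrophages, was the 1 lower gene, at -0.49 ± 0.217 (SE; adjusted p by edgeR = 0.305). The 22 genes together summed to 891 to 1377 CPM with PBS, 1648 to 2493 with Upy-PEG and 1164 to 2423 with antimiR-195, so the antimiR-195 range reached into the PBS range. Monocyte markers summed to 326 to 504 CPM with PBS, 428 to 996 with Upy-PEG and 340 to 441 with antimiR-195, and their median log2 fold change was 0.72 with Upy-PEG and -0.06 with antimiR-195. Markers of resident macrophages overlapped in all groups, at 343 to 394, 307 to 431 and 317 to 390 CPM, and 5 of 8 had a pooled value below 0, with a median of -0.04. None of either list was separated. The part of each macrophage or monocyte type in these values was not tested. Ms4a7 (ENSMUSG00000024672, chromosome 19, 11321039 to 11336146), a membrane protein of macrophages, measured 12.3, 6.57, 9.91 and 9.99 CPM in the PBS libraries, 24.98, 33.2, 14.6 and 23.6 with Upy-PEG and 12.6, 46.3, 23.8 and 15.8 with antimiR-195. AntimiR-195 replicate 1 stood just above PBS replicate 1, and antimiR-195 replicate 2 was the highest library. Its neighbour in sequence family, Ms4a6d, was separated too, over 6.45 to 14.2 CPM in the PBS libraries and 14.5 to 26.7 in the hydrogel libraries.

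Chemokine and cytokine genes had 19 of 28 members higher and 0 lower at an unadjusted p under 0.05, and 3 separated members, Ccl8, Ccl3 and Osm. Ccl8 (ENSMUSG00000009185, chromosome 11, 82115185 to 82116799), a monocyte chemoattractant, measured 6.61, 4.24, 5.37 and 9.32 CPM in the PBS libraries, 13.3, 13.5, 15.5 and 19.3 with Upy-PEG and 11.1, 36.4, 27.5 and 12.5 with antimiR-195. All hydrogel values were above 11, and antimiR-195 replicates 2 and 3 stood highest, for a log2 fold change of 1.52 ± 0.318 (SE; adjusted p by edgeR = 0.172). Ccl3, the chemokine MIP-1 alpha, was scarce, at 0.326, 0.424, 0.624 and 0.358 CPM in the PBS libraries, 2.05, 0.925, 0.913 and 1.81 with Upy-PEG and 0.928, 2.32, 1.17 and 0.8901 with antimiR-195. Its log2 fold change was 1.67 ± 0.371 (SE; adjusted p by edgeR = 0.172). Osm, the interleukin 6 family cytokine oncostatin M, was scarcer still, with 0.1303, 0, 0.291 and 0.319 CPM in the PBS libraries against 0.342 to 0.793 in the hydrogel libraries. Il18 and Ccl7 were higher by 1.38 and 1.31 on the log2 scale but had at least 1 hydrogel library within the PBS range. Il1b and Cxcl2, an inflammatory cytokine and a neutrophil chemoattractant, gave 0.26 ± 0.302 and 0.03 ± 0.4598 (SE; adjusted p by edgeR = 0.696 and 0.981).

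Receptors of myeloid cells were also among the separated genes. C3ar1 (ENSMUSG00000040552, chromosome 6, 122847138 to 122856161), the receptor of the complement fragment C3a, measured 16.4, 16.6, 25.1 and 22.9 CPM in the PBS libraries, 55.3, 52.8, 29.4 and 39.2 with Upy-PEG and 26.4, 42.4, 33.8 and 31.8 with antimiR-195. The hydrogel values began just above the highest PBS value, and its log2 fold change was 0.93 ± 0.189 (SE; adjusted p by edgeR = 0.172). Of 16 complement genes tested it was the only one separated, with 7 higher and 0 lower at an unadjusted p under 0.05. Clec4a2, an inhibitory C-type lectin, measured 3.39, 2.93, 3.33 and 4.62 CPM in the PBS libraries, 8.11, 9.58, 5.83 and 7.94 with Upy-PEG and 5.104, 9.897, 7.23 and 4.76 with antimiR-195. Among 12 myeloid C-type lectins it was the 1 separated member, and 10 were higher and 0 lower at an unadjusted p under 0.05. Cd300a, Cd300ld and Cd300c2, 3 of the 6 tested Cd300 receptors, which bind lipids on dying cells and particles, were separated upward by 0.86, 0.58 and 1.198 on the log2 scale. Tlr1, a Toll-like receptor for bacterial lipopeptides, and P2ry13, a nucleotide receptor, were separated with log2 fold changes of 0.76 and 0.75. None of 12 Fc receptors and ITAM adaptors was separated, although 9 were higher and 0 lower at an unadjusted p under 0.05. Tfec, a transcription factor of the MiT family found in macrophages, measured 0.814, 0.467, 0.916 and 1.15 CPM in the PBS libraries, 2.21, 2.38, 2.02 and 2.55 with Upy-PEG and 1.44, 2.67, 1.66 and 2.21 with antimiR-195. The lowest hydrogel library was 1.25 times the highest PBS library, and the log2 fold change was 1.35 ± 0.244 (SE; adjusted p by edgeR = 0.172). Gdf3, a ligand of the TGF-beta superfamily whose gene lies 2.959 kb from Apobec1, measured 0.261, 0.424, 0.583 and 0.438 CPM in the PBS libraries, 2.24, 1.39, 1.19 and 1.55 with Upy-PEG and 0.742, 1.16, 1.27 and 1.1997 with antimiR-195. All PBS values were below 0.6 and all hydrogel values above 0.7, for a log2 fold change of 1.64 ± 0.2799 (SE; adjusted p by edgeR = 0.135).

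Genes of macrophage fusion were higher without separating. Of 14 tested, 11 were higher and 0 lower at an unadjusted p under 0.05, with a median log2 fold change of 0.85, yet 0 were separated. The median was 1.21 with Upy-PEG and 0.46 with antimiR-195. Gpnmb, a glycoprotein of lipid-laden and fused macrophages, measured 14.7, 7.72, 23.1 and 18.6 CPM in the PBS libraries, 35.4, 59.97, 44.3 and 32.5 with Upy-PEG and 14.8, 25.6, 17.8 and 27.4 with antimiR-195. All Upy-PEG values exceeded all PBS values, while 2 of the 4 antimiR-195 values lay within the PBS range.

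Genes of lysosomes and of the actin cytoskeleton were higher with hydrogel in large part. Of 26 lysosome genes, 17 were higher and 0 lower at an unadjusted p under 0.05, and Ctsa, Npc2 and Lamp2 were separated. Ctsa, cathepsin A, measured 149.7, 163, 155 and 153 CPM in the PBS libraries, 187, 203, 188 and 196 with Upy-PEG and 168, 215, 186 and 167 with antimiR-195. Its difference was small and even, a log2 fold change of 0.28 ± 0.0862 (SE; adjusted p by edgeR = 0.186), with the nearest libraries at 167 and 163. Npc2, which carries cholesterol out of lysosomes, ranged over 59.2 to 78.5 CPM in the PBS libraries and 79.3 to 146 in the hydrogel libraries, and Lamp2, a lysosomal membrane protein, over 175 to 197 CPM in the PBS libraries and 199.9 to 232 in the hydrogel libraries. Of 14 genes of lipid loading and cholesterol efflux, 7 were higher and 1 lower at an unadjusted p under 0.05, with a median log2 fold change of 0.23 and Fabp5 and Npc2 separated. Their summed level overlapped in all groups, at 7068 to 10422 CPM with PBS, 6299 to 9150 with Upy-PEG and 8190 to 10622 with antimiR-195. Fabp5, a fatty acid binding protein of macrophages and endothelium, measured 21.4, 17.5, 24.02 and 21.9 CPM in the PBS libraries, 33.8, 40.7, 35.5 and 25.6 with Upy-PEG and 25.8, 30.2, 28.7 and 33.1 with antimiR-195 (log2 fold change 0.57 ± 0.126, SE; adjusted p by edgeR = 0.172). Ftl1, the ferritin light chain, ranged over 104 to 153 CPM in the PBS libraries and 159.7 to 293 in the hydrogel libraries, and its processed pseudogenes make this value uncertain. In the list of 25 actin and motility genes, 22 were higher and 0 lower at an unadjusted p under 0.05, with a median of 0.62 in Upy-PEG and 0.53 in antimiR-195. S100a11, a calcium-binding partner of annexins, measured 18.6, 17.8, 25.4 and 25.96 CPM in the PBS libraries, 58.9, 51.8, 30.8 and 43.2 with Upy-PEG and 27.8, 67.1, 42.3 and 27.7 with antimiR-195. Its nearest values were 27.7 in antimiR-195 replicate 4 and 26.0 in PBS replicate 4, and its log2 fold change was 0.99 ± 0.247 (SE; adjusted p by edgeR = 0.172). Arpc3, a subunit of the Arp2/3 complex that branches actin filaments, ranged over 60.1 to 69.4 CPM in the PBS libraries and 74.9 to 115 in the hydrogel libraries, and a second subunit, Arpc4, over 36.6 to 46.4 CPM in the PBS libraries and 48.95 to 76.7 in the hydrogel libraries. Cdc42, the GTPase upstream of that complex, ranged over 172 to 201 CPM in the PBS libraries and 223 to 268 in the hydrogel libraries.

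Genes of protein folding in the endoplasmic reticulum (ER) contributed 4 separated members of 18 tested in the unfolded protein response list, Sdf2l1, Manf, Xbp1 and Pdia6. In that response the sensor IRE1 splices Xbp1 mRNA, and XBP1 and ATF6 then raise chaperones through ER stress elements in their promoters. Sdf2l1 (ENSMUSG00000022769, chromosome 16, 17130138 to 17132383), an ER-resident partner of chaperones, measured 5.47, 5.68, 5.83 and 6.77 CPM in the PBS libraries, 9.602, 11.5, 9.9996 and 8.98 with Upy-PEG and 8.07, 16.4, 9.34 and 11.9 with antimiR-195. Every hydrogel value was above 8 and every PBS value below 7, for a log2 fold change of 0.85 ± 0.172 (SE; adjusted p by edgeR = 0.172). Manf, a secreted factor made under ER stress, measured 39.9, 29.99, 32.9 and 33.97 CPM in the PBS libraries, 52.6, 52.8, 44.4 and 41.9 with Upy-PEG and 41.2, 74.6, 58.4 and 53.4 with antimiR-195 (log2 fold change 0.61 ± 0.141, SE; adjusted p by edgeR = 0.172). Xbp1 measured 51.4, 45.2, 44.2 and 49.8 CPM in the PBS libraries, 59.9, 66.2, 62.3 and 54.04 with Upy-PEG and 55.6, 65.3, 62.6 and 68.2 with antimiR-195, with a log2 fold change of 0.37 ± 0.0867 (SE; adjusted p by edgeR = 0.172). Its groups were close but did not overlap. Pdia6, a protein disulfide isomerase, ranged over 80.5 to 105 CPM in the PBS libraries and 109 to 164 in the hydrogel libraries. The rest of the list was less uniform: 8 members were higher and 1, Herpud1, lower at an unadjusted p under 0.05, and the main chaperone Hspa5 gave 0.23 ± 0.1199 (SE; adjusted p by edgeR = 0.381). Outside the list, the ER and Golgi transport genes Spcs3, Kdelr2, Erp44, Ostc and Tram1 were separated upward, with log2 fold changes of 0.43, 0.42, 0.24, 0.48 and 0.31; these 5 were chosen after their values were seen. Of these 9 separated ER genes, Sdf2l1 and Erp44 were separated as well when libraries were scaled by their totals alone.

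The ER stress element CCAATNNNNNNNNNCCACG, searched on both strands in the 250 bases before each RefSeq start (GRCm38.p6), was found in 0.113% of 32851 promoters. Of the 15 list genes with a promoter entry 7 held it. Of the 3 separated members with an entry, Pdia6 held it and the other two did not, and Manf was not searched. Its match is shown because it lies before a separated gene, with the fixed letters of the element in capitals. The window is chr12:17266476-17266524 on the plus strand, outside annotated genes, and the match begins 98 bases before the start.
Pdia6: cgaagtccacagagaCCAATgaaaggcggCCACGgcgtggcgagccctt
A match is a description of the sequence only.

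Matrix and fibroblast genes were separated singly, not as a set. Postn (ENSMUSG00000027750, chromosome 3, 54361109 to 54391037), which encodes periostin, a matricellular protein of activated fibroblasts and valves, measured 139, 112, 141 and 151 CPM in the PBS libraries, 687, 513, 224 and 293 with Upy-PEG and 165, 464, 169.9 and 224 with antimiR-195. PBS values lay together while hydrogel values ranged over more than 4-fold, from antimiR-195 replicate 1 to Upy-PEG replicate 1. The log2 fold change was 1.29 ± 0.327 (SE; adjusted p by edgeR = 0.172), 1.66 with Upy-PEG and 0.91 with antimiR-195. Markers of valves and endocardium summed to 250 to 300 CPM with PBS, 349 to 837 with Upy-PEG and 281 to 552 with antimiR-195. Postn is on that list, and without it the sums were 130 to 159, 125 to 150 and 88.5 to 159 CPM, overlapping in all groups. Mfap5, a microfibril protein, measured 31.5, 32.2, 34.6 and 36.4 CPM in the PBS libraries, 81.8, 71.7, 45.7 and 53.4 with Upy-PEG and 42.3, 90.5, 57.3 and 44.6 with antimiR-195, with a log2 fold change of 0.85 ± 0.204 (SE; adjusted p by edgeR = 0.172). Meox1, a homeobox transcription factor induced in activated cardiac fibroblasts, measured 16.2, 12.3, 13.3 and 10.2 CPM in the PBS libraries, 39.6, 33.1, 19.6 and 19.98 with Upy-PEG and 18.9, 40.97, 18.8 and 26.5 with antimiR-195, with a log2 fold change of 1.06 ± 0.251 (SE; adjusted p by edgeR = 0.172). In these genes Upy-PEG replicates 1 and 2 and antimiR-195 replicate 2 held the highest values. Thbs4, a thrombospondin, ranged over 5.31 to 8.04 CPM in the PBS libraries and 8.47 to 25.1 in the hydrogel libraries, Aspn, a small leucine-rich proteoglycan, over 27.2 to 38.3 CPM in the PBS libraries and 38.7 to 75.8 in the hydrogel libraries, and Cilp, a matrix protein of cartilage and heart, over 16.4 to 23.9 CPM in the PBS libraries and 24.2 to 73.5 in the hydrogel libraries. Ltbp4 and Ltbp1, which hold latent TGF-beta in the matrix, were separated the other way: Ltbp4 measured 520.1, 491, 500.3 and 437 CPM in the PBS libraries, 371, 352, 298 and 388 with Upy-PEG and 402, 289, 324 and 385 with antimiR-195, a log2 fold change of -0.47 ± 0.108 (SE; adjusted p by edgeR = 0.172), and Ltbp1 gave -0.27 ± 0.0946 (SE). Of the 4 latent TGF-beta binding proteins tested, 2 were lower and 1 higher at an unadjusted p under 0.05, with log2 fold changes from -0.47 to 0.93. The large matrix glycoprotein gene Tnxb was separated downward by -0.48. None of 19 collagen genes was separated. Their median log2 fold change was 0.72 with Upy-PEG and -0.06 with antimiR-195, and 14 of 19 differed between the hydrogel groups at an unadjusted p under 0.05, against 13.1% of all genes. Col1a1, the main fibrillar collagen, measured 692, 736, 974 and 1144 CPM in the PBS libraries, 2589.6, 1849.8, 919 and 1416 with Upy-PEG and 559.6, 949.9, 636 and 752 with antimiR-195.

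A few separated genes belong to muscle types other than the working ventricle. Myl1, an essential myosin light chain of fast skeletal muscle, measured 19.9, 17.3, 23.6 and 23.7 CPM in the PBS libraries, 30.6, 30.2, 31.1 and 29.6 with Upy-PEG and 34.4, 33.6, 27.3 and 38.9 with antimiR-195, with a log2 fold change of 0.60 ± 0.1099 (SE; adjusted p by edgeR = 0.172). Tnnt3, the fast skeletal troponin T, was scarce, at 0.586, 0.467, 0.749 and 0.557 CPM in the PBS libraries, 3.98, 1.98, 1.75 and 1.18 with Upy-PEG and 0.928, 2.02, 1.66 and 2.44 with antimiR-195, with a log2 fold change of 1.75 ± 0.359 (SE; adjusted p by edgeR = 0.172). Of 5 skeletal muscle markers tested Tnnt3 was the 1 separated, Mylpf gave 0.10 ± 0.361 (SE), and the list summed to 280 to 499 CPM with PBS, 511 to 558 with Upy-PEG and 479 to 913 with antimiR-195. Nppa is also an atrial gene. Of 5 atrial markers tested it was the 1 separated. Myl7 measured 2.08, 8.02, 3.71 and 11.4 CPM in the PBS libraries, 3.26, 1.42, 2.06 and 13.9997 with Upy-PEG and 0.928, 24.1, 2.79 and 8.05 with antimiR-195. Across the antimiR-195 libraries Nppa and Myl7 rose in the same order, and across the Upy-PEG libraries they did not. Myl4 and Sln gave log2 fold changes of 0.26 ± 0.502 and 0.28 ± 0.874 (SE). AntimiR-195 replicate 2 had the highest Myl7, Myl4 and Sln values of all libraries, and Bmp10 was at 0 in every library. Without that library the log2 fold change of Nppa was 1.40 (adjusted p by edgeR = 0.0889). Nppa is separated, so its staying above PBS without a hydrogel library was fixed in advance, and nothing is read from it. The part of atrial tissue in the Nppa values was not tested.

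Clock genes were lower with hydrogel, repressors and output factors among them. The clock activators BMAL1 (from Arntl) and CLOCK bind E-boxes and raise the Per, Cry and Ciart repressors and the PAR bZIP factors Tef, Dbp and Hlf, which act on D-boxes. Many of these transcripts cycle through the day, and the labels do not give the hour at which hearts were taken. Of 19 clock genes tested, 9 were lower and 1, Arntl, higher at an unadjusted p under 0.05, and 4 were separated downward, Per1, Per3, Tef and Ciart. Per1 (ENSMUSG00000020893, chromosome 11, 69095217 to 69109960) measured 83.8, 89.4, 81.3 and 99.3 CPM in the PBS libraries, 35.1, 57.1, 61.5 and 55.7 with Upy-PEG and 39.2, 22.5, 32.4 and 48.5 with antimiR-195. Hydrogel values stayed under 62 and PBS values over 81, and the log2 fold change was -1.03 ± 0.175 (SE; adjusted p by edgeR = 0.135). It was -0.76 with Upy-PEG and -1.31 with antimiR-195, which differed by -0.55 ± 0.2104 (SE; unadjusted p = 0.02, adjusted p by edgeR = 0.364).

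Per3 (ENSMUSG00000028957, chromosome 4, 151003652 to 151044665) measured 63.7, 69.6, 75.2 and 69.4 CPM in the PBS libraries, 31.9, 40.02, 48.9 and 54.2 with Upy-PEG and 54.8, 35.5, 52.2 and 24.8 with antimiR-195. Its lowest values were in antimiR-195 replicate 4, Upy-PEG replicate 1 and antimiR-195 replicate 2, and its log2 fold change was -0.70 ± 0.185 (SE; adjusted p by edgeR = 0.172). Tef (ENSMUSG00000022389, chromosome 15, 81802421 to 81826863) measured 229.9, 258, 252 and 237 CPM in the PBS libraries, 113, 149.7, 168 and 210.3 with Upy-PEG and 202, 149, 214 and 101 with antimiR-195. Ciart (ENSMUSG00000038550, chromosome 3, 95878503 to 95882251), a repressor of BMAL1 and CLOCK, measured 17.5, 14.2, 16.1 and 15.2 CPM in the PBS libraries, 3.79, 7.73, 11.7 and 13.7 with Upy-PEG and 12.6, 7.401, 12.4 and 2.94 with antimiR-195. For Tef and Ciart as for Per3, antimiR-195 replicate 4 and Upy-PEG replicate 1 were the lowest libraries, and the log2 fold changes were -0.58 ± 0.183 and -0.81 ± 0.334 (SE; adjusted p by edgeR = 0.198 and 0.285). Per2, the third period gene, measured 30.4, 39.7, 44.2 and 36.9 CPM in the PBS libraries, 12.7, 19.2, 24.2 and 31.3 with Upy-PEG and 26.7, 13.3, 24.9 and 14.4 with antimiR-195, and Upy-PEG replicate 4 alone overlapped the PBS range. Its log2 fold change was -0.86 ± 0.226 (SE; adjusted p by edgeR = 0.172). Arntl measured 2.57, 2.84, 1.21 and 1.87 CPM in the PBS libraries, 10.7, 6.74, 4.68 and 2.401 with Upy-PEG and 3.48, 3.18, 2.15 and 13.6 with antimiR-195, a log2 fold change of 1.47 ± 0.512 (SE; adjusted p by edgeR = 0.225). Here antimiR-195 replicate 4 and Upy-PEG replicate 1 were the highest libraries, and 2 hydrogel values lay within the PBS range. Nr1d1, which encodes the repressor REV-ERB alpha, gave -0.00 ± 0.148 and Dbp -0.33 ± 0.297 (SE; adjusted p by edgeR = 0.996 and 0.598). The other settings kept the sign of each separated clock gene, which separation largely fixes in advance. Ciart was not separated when libraries were scaled by their totals alone.

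The E-box CACGTG, a palindrome, was found in the 250 bases before the start in 6.02% of 32851 RefSeq promoters, and the D-box TTATGTAA, searched on both strands, in 0.819%. Of the 16 clock genes with a promoter entry, 5 held an E-box, among them Ciart, Per1 and Tef, and of the separated clock genes only Per3 held a D-box. The windows below are shown because these 4 genes were lower together, with each motif in capitals and each window written 5′ to 3′ on the strand of the gene. Coordinates are GRCm38. Ciart lies at chr3:95882252-95882359 on the minus strand with its 3 matches beginning 116, 58 and 44 bases before the start, in an intron of the gene C920021L13Rik. Per1 lies at chr11:69098768-69098803 and Tef at chr15:81811261-81811296, both on the plus strand before an internal RefSeq start and in introns of the longer GENCODE gene models. A further Tef match falls in an annotated exon and is not shown. Per3 lies at chr4:151044801-151044885 on the minus strand, within an intron of Camta1.
Ciart: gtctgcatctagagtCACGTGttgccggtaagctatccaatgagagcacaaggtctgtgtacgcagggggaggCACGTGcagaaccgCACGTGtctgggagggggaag
Per1: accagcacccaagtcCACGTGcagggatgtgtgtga
Tef: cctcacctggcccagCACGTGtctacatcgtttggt
Per3: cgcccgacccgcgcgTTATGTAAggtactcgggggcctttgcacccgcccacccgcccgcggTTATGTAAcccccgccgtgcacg
The 3 E-boxes of Ciart stand within 1 window, while Per1 and Tef show 1 each and Per3 shows 2 D-boxes.

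Lower genes outside the clock list included genes of signalling, ion transport, vessels and metabolism. Rasgrp2 (ENSMUSG00000032946, chromosome 19, 6399340 to 6415216), a calcium-responsive exchange factor for the GTPase Rap1, measured 44.2, 51.7, 45.6 and 42.8 CPM in the PBS libraries, 28.1, 30.6, 32.6 and 35.02 with Upy-PEG and 39.997, 31.7, 37.3 and 38.1 with antimiR-195. All 4 Upy-PEG values were at or under 35.0 and the antimiR-195 values reached 40.0, against at least 42.8 with PBS, for a log2 fold change of -0.44 ± 0.0893 (SE; adjusted p by edgeR = 0.172). Rapgef3 (ENSMUSG00000022469, chromosome 15, 97744770 to 97767972), the cAMP-gated Rap1 exchange factor EPAC1, measured 40.5, 35.6, 33.4 and 32.3 CPM in the PBS libraries, 25.2, 27.4, 27.9 and 26.6 with Upy-PEG and 28.4, 25.6, 28.3 and 28.9 with antimiR-195. Hydrogel values covered a range of under 4 CPM, and the log2 fold change was -0.38 ± 0.0799 (SE; adjusted p by edgeR = 0.172). Sh2d3c, an adaptor protein of endothelium and leukocytes, ranged over 29.9 to 36.2 CPM in the PBS libraries and 20.1 to 28.1 in the hydrogel libraries.

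Ion transport genes were among the lower genes. Wnk4 (ENSMUSG00000035112, chromosome 11, 101260567 to 101277409), a kinase that controls chloride cotransporters, measured 24.5, 29.1, 28.9 and 24.3 CPM in the PBS libraries, 20.01, 18.9, 18.4 and 21.9 with Upy-PEG and 21.5, 19.1, 21.1 and 19.1 with antimiR-195, with a log2 fold change of -0.42 ± 0.08599 (SE; adjusted p by edgeR = 0.172). Wnk2, of the same family, measured 83.95, 153, 101 and 103 CPM in the PBS libraries, 61.002, 54.3, 79.3 and 70.7 with Upy-PEG and 83.2, 40.9, 68.7 and 65.3 with antimiR-195. PBS replicate 2 stood far above the other PBS libraries for Wnk2, and PBS replicate 1 lay less than 1 CPM above antimiR-195 replicate 1. Slc4a8, a sodium-driven bicarbonate exchanger, measured 3.55, 5.599, 4.62 and 3.54 CPM in the PBS libraries, 2.33, 1.88, 2.22 and 3.398 with Upy-PEG and 2.23, 2.32, 2.297 and 2.71 with antimiR-195 (log2 fold change -0.83 ± 0.178, SE; adjusted p by edgeR = 0.172). The potassium channel genes Kcnn2, Kcna7 and Kcnj5 were separated downward with log2 fold changes of -0.42 ± 0.0929, -0.42 ± 0.108 and -0.27 ± 0.0785 (SE). They were 3 of 51 Kcn genes tested, against 1.22% of all genes separated downward. Of the 51, 7 were lower and 4 higher at an unadjusted p under 0.05, with log2 fold changes from -0.91 to 1.11. The channel genes named here are therefore single members, not the family. The subunits from Kcnn2, Kcna7 and Kcnj5 form the channels SK2, Kv1.7 and GIRK4. Abcc8, the sulfonylurea receptor of ATP-sensitive potassium channels, was separated by -0.24. Kcna7 measured 12.97, 13.2, 11.7 and 12.03 CPM in the PBS libraries, 8.48, 8.19, 9.13 and 9.94 with Upy-PEG and 11.6, 7.96, 9.14 and 9.98 with antimiR-195.

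Genes used by endothelium were lower in part. Of 20 endothelial identity genes 5 were lower and 1 higher at an unadjusted p under 0.05, against 6.57% and 8.67% of all genes. Robo4, a guidance receptor of vessel walls, was the 1 separated, against 1.22% of all genes separated downward. Robo4 measured 53.7, 46.1, 45.1 and 44.2 CPM in the PBS libraries, 38.5, 34.9, 34.6 and 41.1 with Upy-PEG and 38.9, 30.9, 39.6 and 42.6 with antimiR-195 (log2 fold change -0.33 ± 0.0968, SE; adjusted p by edgeR = 0.176). Pecam1 and Cdh5, which encode endothelial junction proteins, gave -0.04 ± 0.0891 and -0.21 ± 0.161 (SE; adjusted p by edgeR = 0.857 and 0.532). The 20 genes summed to 1925 to 2153 CPM with PBS, 1698 to 1836 with Upy-PEG and 1466 to 1961 with antimiR-195. Outside the list, Kank3, an adhesion protein of vessels, measured 81.4, 69.4, 62.9 and 63.99 CPM in the PBS libraries, 48.1, 50.1, 47.9 and 52.2 with Upy-PEG and 59.9, 47.8, 61.8 and 49.3 with antimiR-195, and Notch4 and Gata2, a receptor and a transcription factor of endothelium, were separated by -0.38 and -0.35. Kank3, Notch4 and Gata2 were chosen after their values were seen. The part of endothelial cell number or of the endothelial summed level in these genes was not tested.

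Metabolic genes gave few separated members. Hadha, the alpha subunit of the mitochondrial trifunctional protein of fatty acid oxidation, measured 1507, 1655, 1544 and 1603 CPM in the PBS libraries, 1065, 1164, 1465 and 1276 with Upy-PEG and 1469.7, 965, 1212 and 1378 with antimiR-195. It was the 1 separated gene of 28 in its list, with a log2 fold change of -0.34 ± 0.121 (SE; adjusted p by edgeR = 0.237). Acacb, the acetyl-CoA carboxylase that restrains mitochondrial fatty acid uptake, was separated too, by -0.48, as were Got2, the mitochondrial aspartate aminotransferase, by -0.23 and Dgat2, which completes triglyceride synthesis, by -0.43. Among 40 nuclear genes of oxidative phosphorylation none was separated. Their median log2 fold change was -0.21 with Upy-PEG and 0.22 with antimiR-195, and 25 of 40 differed between the hydrogel groups at an unadjusted p under 0.05, against 13.1% of all genes. The pooled median of 0.02 turned to -0.13 without antimiR-195 replicates 2 and 3. None of 30 cardiomyocyte identity genes was separated. The summed level of that list was 124663 to 143055 CPM with PBS, 90539 to 122691 with Upy-PEG and 121458 to 137621 with antimiR-195. Every Upy-PEG library thus lay below every PBS library, while the antimiR-195 range overlapped the PBS range. The part of this lower level in the genes higher with hydrogel was not tested. Ptpn3, a tyrosine phosphatase, Btbd11, a BTB domain protein, Ing5, a chromatin reader, Ppl, the desmosomal plakin periplakin, and Pex26, a peroxisome import factor, were separated downward, with log2 fold changes of -0.50, -0.66, -0.48, -0.75 and -0.33.

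**Figure D2:**
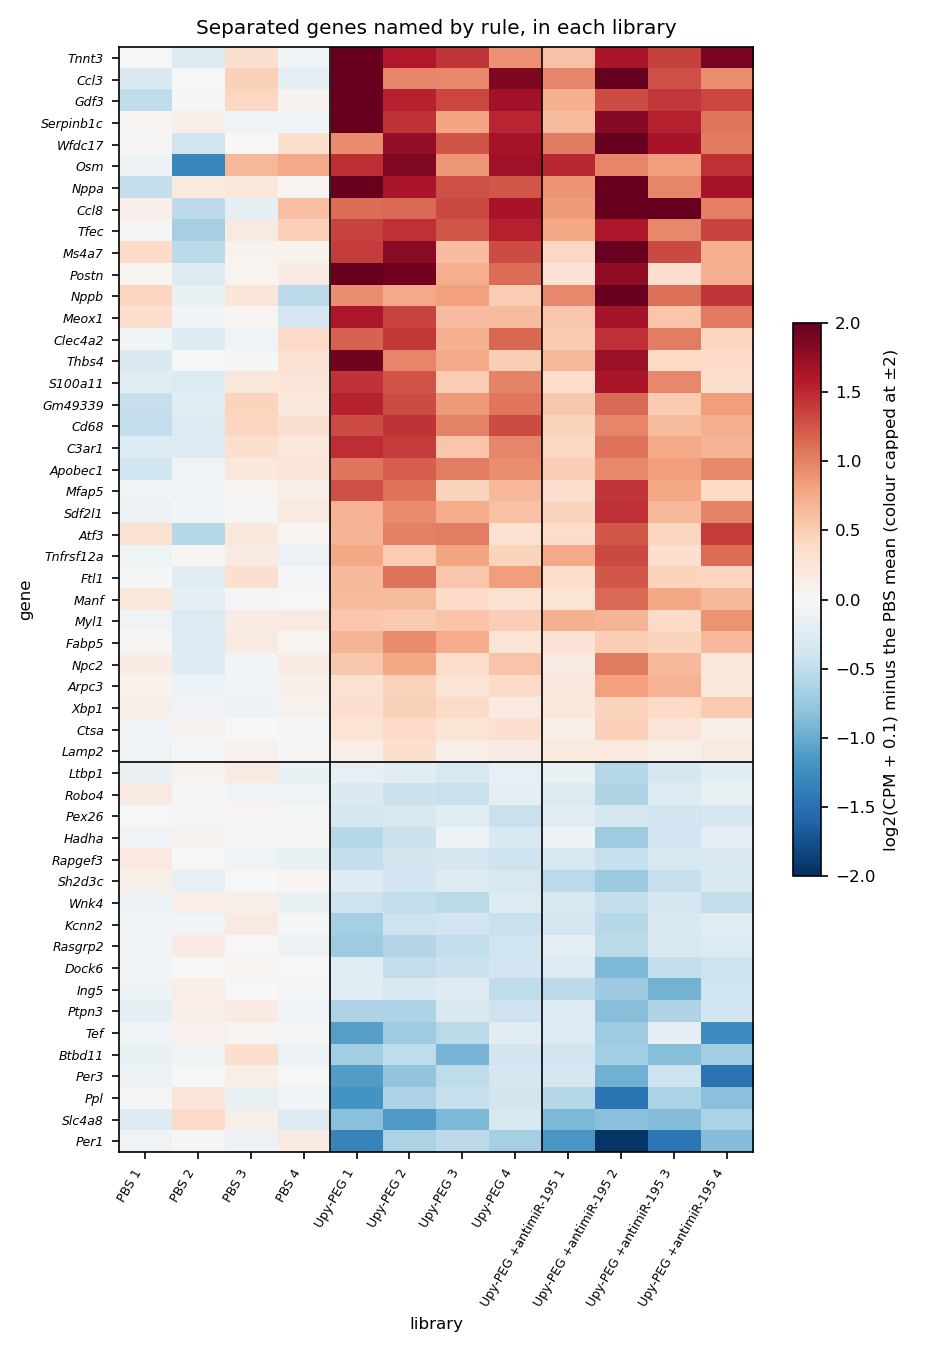
Colour gives log2(CPM + 0.1) minus the mean of the 4 PBS libraries, capped at ±2, for the 51 separated genes named by rule (rows, 33 higher and 18 lower) in each of 12 libraries (columns, black lines between groups). Hydrogel columns are red throughout the upper block and blue throughout the lower block, palest in antimiR-195 replicate 1 for many genes and darkest in Upy-PEG replicate 1 and antimiR-195 replicate 2.

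Most lists had no separated member, 32 of 53. Mitosis and cytokinesis was one of them: 27 of 36 genes were higher and 0 lower at an unadjusted p under 0.05, but the median was 1.13 with Upy-PEG and 0.25 with antimiR-195, and 28 of 36 differed between the hydrogel groups at an unadjusted p under 0.05, against 13.1% of all genes. Mki67, the proliferation antigen, measured 7.69, 10.2, 15.1 and 15.4 CPM in the PBS libraries, 44.1, 27.4, 19.1 and 23.01 with Upy-PEG and 10.6, 13.3, 8.6999 and 13.3 with antimiR-195. All Upy-PEG values exceeded all PBS values and all antimiR-195 values lay within the PBS range. DNA replication (9 of 32 higher, 0 lower) and the interferon response (5 of 25 higher, 0 lower) also had 0 separated members. Ribosomal protein genes were 12 of 30 higher and 0 lower, with medians of 0.21 with Upy-PEG and 0.51 with antimiR-195. Of the 333 separated genes 36 (10.8%), 29 higher and 7 lower, belong to any of the 53 lists, against 769 of all 14770 genes tested (5.21%). The lists were chosen with earlier results of these data known, so nothing is read from this difference.

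**Figure D3:**
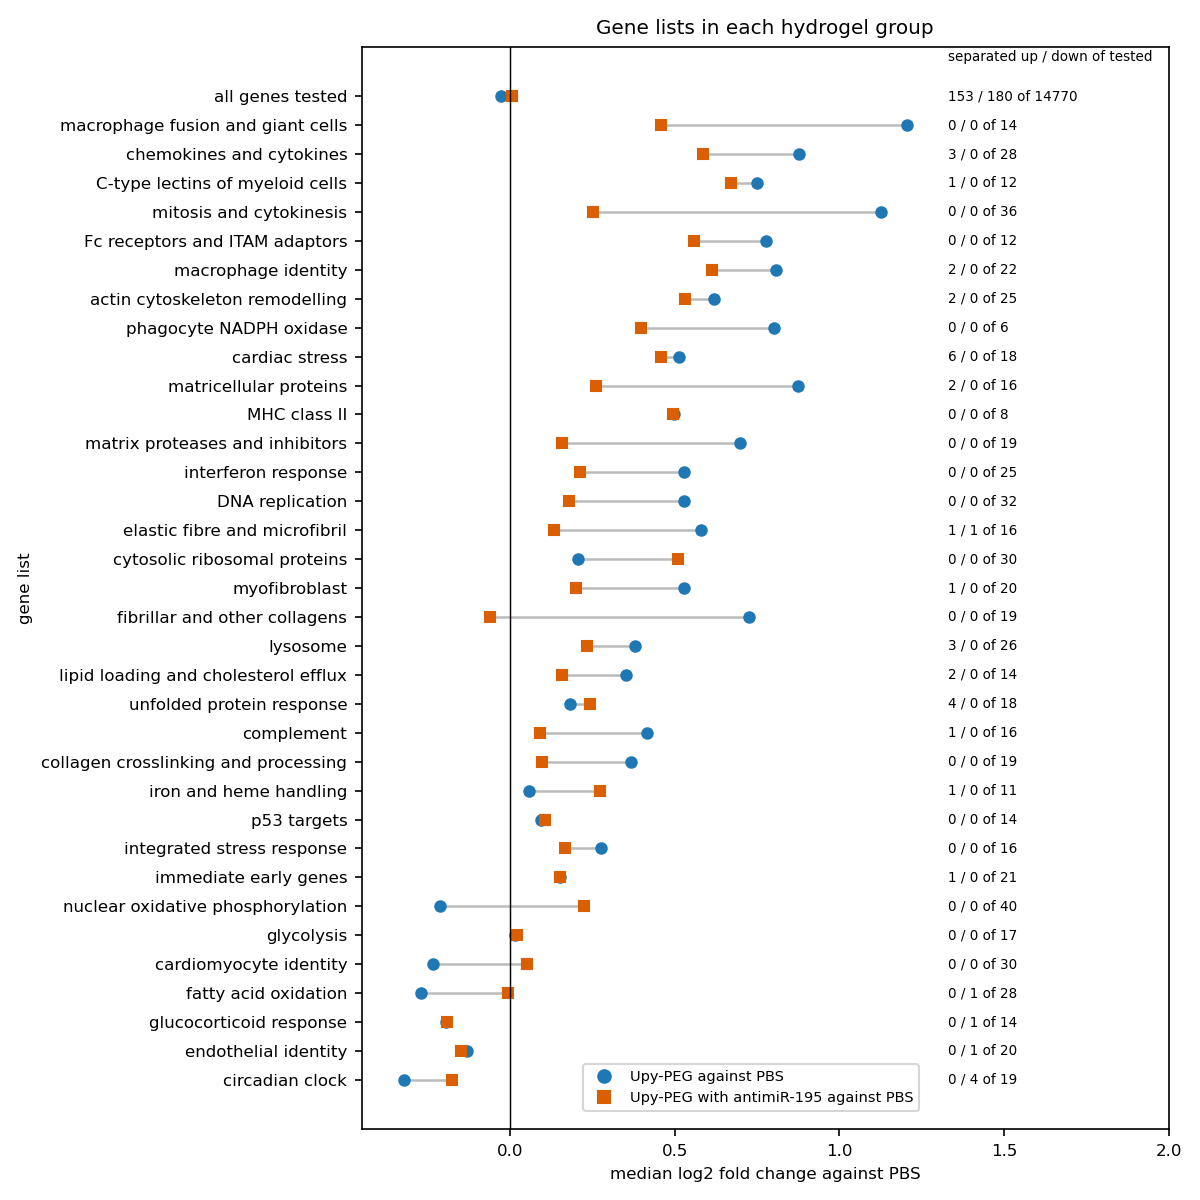
Median log2 fold change against PBS (horizontal axis) of the tested genes of each list (vertical axis), for Upy-PEG (blue circles) and Upy-PEG with antimiR-195 (orange squares), with counts of separated genes at the right. The symbols lie close for cardiac stress (0.51 and 0.46) and far apart for mitosis (1.13 and 0.25) and collagens (0.72 and -0.06), and both groups share the 4 PBS libraries.

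Markers of other cell types were summed by list in each library. Neutrophil markers summed to 24.2 to 64.1 CPM with PBS, 49.4 to 79.9 with Upy-PEG and 22.5 to 79.6 with antimiR-195, and T cell markers to 7.29 to 8.03, 7.34 to 9.03 and 8.04 to 9.87. Natural killer cell markers summed to at most 3.6 in any library. Erythroid markers summed to 507 to 1506 CPM with PBS, 274 to 584 with Upy-PEG and 579 to 1352 with antimiR-195. Platelet markers summed to 22.9 to 41.8, 46.6 to 62.5 and 34.2 to 116 CPM. Markers of resting fibroblasts summed to 1989 to 2345, 1870 to 2318 and 2046 to 2397 CPM, overlapping in all groups. The part of any of these cell types in the separated genes was not tested.

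The separated genes had similar medians in both hydrogel groups, which share the 4 PBS libraries. Upward genes had a median log2 fold change of 0.56 pooled, 0.53 for Upy-PEG and 0.53 for antimiR-195, and downward genes -0.33 pooled, -0.30 and -0.36. The fold change was larger with Upy-PEG in 81 of the 153 upward genes and larger with antimiR-195 in 72. Among the 180 downward genes it was further from 0 with antimiR-195 in 130 (72.2%), and antimiR-195 replicate 2 was the library farthest from PBS in 120 of the 180. Over all genes tested the antimiR-195 value was the one further from 0 in 58.8%. In the direct contrast of both hydrogel groups, which uses no PBS library, 11 of 153 upward genes (7.19%) and 2 of 180 downward genes (1.11%) had an unadjusted p under 0.05, against 13.1% of all genes tested and with 0 genes past an edgeR adjusted p of 0.05. Separation itself asks the values of both hydrogel groups to lie together on one side. Nothing about these genes is therefore read from the similar medians or the lower share. Of the upward genes 25 exceeded a pooled fold of 2 and of the downward genes 2, Per1 and Doc2b, a calcium sensor of exocytosis, at -1.55 ± 0.384 (SE). The largest upward value was Car9, a carbonic anhydrase induced by low oxygen, at 0.0977, 0.0424, 0.125 and 0.199 CPM in the PBS libraries, 0.963, 0.694, 0.516 and 0.443 with Upy-PEG and 0.278, 0.818, 0.391 and 0.3096 with antimiR-195 (log2 fold change 2.18 ± 0.4601, SE; adjusted p by edgeR = 0.172). Those values correspond to a few reads per PBS library.

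By their medians, upward genes were shorter and downward genes longer than all genes tested. The median gene length was 2830 bases for upward genes, 4874 for downward genes and 3514 for all genes tested. Median levels were 18.6, 38.5 and 15.5 CPM, so downward genes were also better covered. Protein-coding genes made up 96.1% and 97.8%, against 90.5% of all tested. AntimiR-195 replicate 2, the library with the strongest length slope, was the farthest library from PBS in 71 upward and 120 downward genes. With each library's length slope as a covariate, all 153 upward and 180 downward genes kept their sign, and 146 and 170 of them had an unadjusted p under 0.05. Without antimiR-195 replicates 2 and 3, all kept their sign as well, with 140 and 157 at an unadjusted p under 0.05. These genes were picked for values that lie on one side, and 148 and 173 had an unadjusted p under 0.05 in the main edgeR fit. Kept signs and these counts are thus largely fixed in advance, with the covariate or with libraries removed. Nothing about the length pattern is read from them. The part of RNA quality in the length pattern was not tested.

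**Figure D4:**
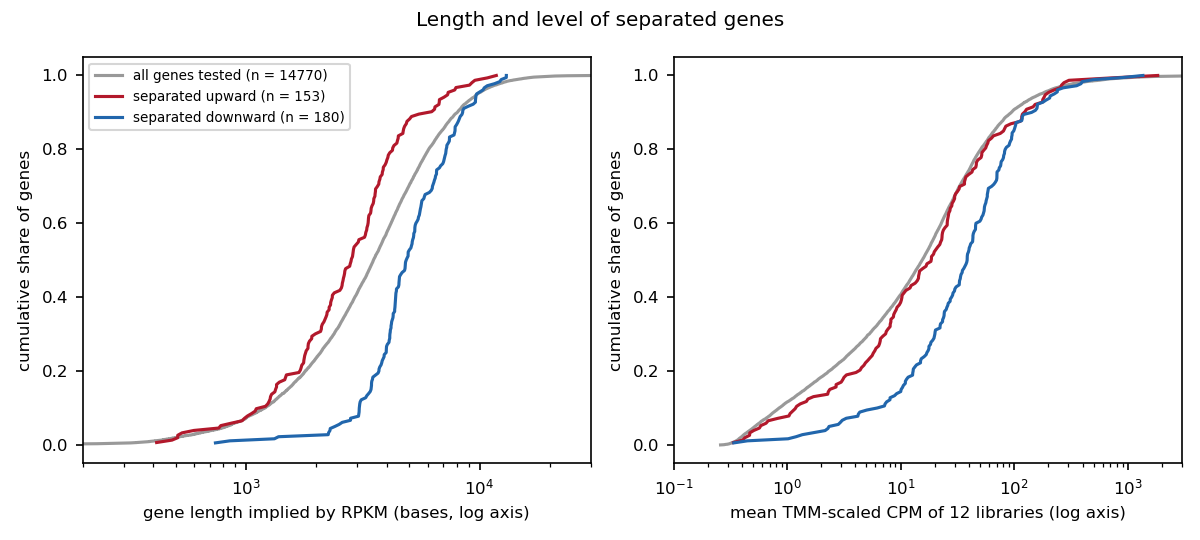
Cumulative share of genes (vertical axes) against gene length in bases (left, log axis) and mean TMM-scaled CPM over 12 libraries (right, log axis), for all 14770 tested genes (grey), 153 upward (red) and 180 downward separated genes (blue). The red length curve lies left of grey and the blue curve right of it, with medians of 2830, 3514 and 4874 bases.

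Some libraries set the boundary between the groups more often than others. Among hydrogel libraries, antimiR-195 replicate 1 was nearest to PBS in 60 of the 153 upward genes (39.2%) and 52 of the 180 downward genes (28.9%), and antimiR-195 replicate 2 in 4 and 2. Among PBS libraries, replicate 4 was nearest to the hydrogel values in 53 upward and 69 downward genes. Replicate 1 was nearest in 39 and 60, replicate 3 in 49 and 34, and replicate 2 in 12 and 17. Gaps were narrow: the median ratio between the nearest libraries was 1.04 for upward and 1.03 for downward genes, and it exceeded 1.2 in 11 upward genes and in 1 downward gene, Per1. Counts were larger without single boundary libraries, with scaling and filter redone: 343 upward and 460 downward without PBS replicate 1, 319 and 341 without PBS replicate 4, 323 and 280 without antimiR-195 replicate 1, and 258 upward without PBS replicate 3, against 153 and 180. Leaving out a library loosens the rule, so part of the increase follows from the rule itself. Without antimiR-195 replicate 2, seldom the nearest, the counts were 170 and 181. Scaling moved many genes across the boundary. By library totals alone, which is the scale of the authors' RPKM, 106 genes were separated upward and 99 downward, of which 73 and 70 were also separated under TMM. Apobec1, Nppa, Nppb, Gdf3, Tfec, Wfdc17, Tnfrsf12a, Sdf2l1, Ccl8, Postn, Per1, Per3, Tef, Rasgrp2, Rapgef3 and Wnk4 were separated on both scales. Cd68, C3ar1, Ms4a7, Manf, Xbp1, Sh2d3c, Ing5, Dock6 and Robo4 were separated under TMM only.

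**Figure D5:**
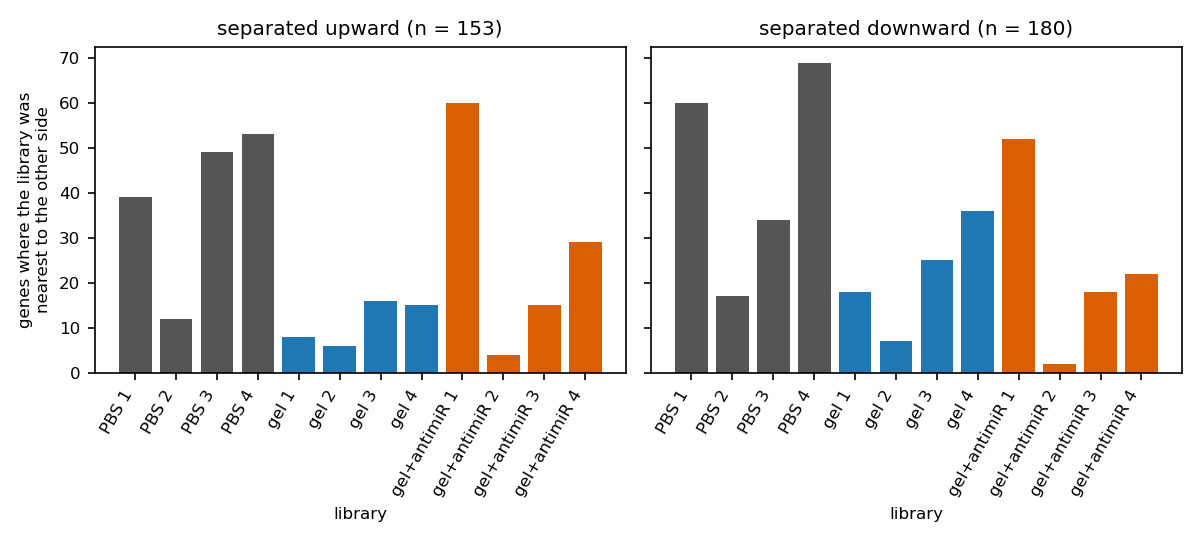
Number of separated genes (vertical axis, from 0) in which each library (horizontal axis) was the nearest of its side to the other side, for 153 upward genes (left) and 180 downward genes (right), with PBS in grey, Upy-PEG (gel) in blue and antimiR-195 (gel+antimiR) in orange. The tallest hydrogel bar in each panel is antimiR-195 replicate 1, at 60 and 52 genes, and antimiR-195 replicate 2 is the shortest at 4 and 2.

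Just inside the boundary, Gpx7 had a lowest hydrogel value of 13.43 against a highest PBS value of 13.42, Ostc 43.29 against 43.28 and Rnf25 12.58 against 12.57 CPM. Just outside, Prr13 had 32.89 against 32.94, Actr3 112.6 against 112.8 and Fgd3 3.202 against 3.206. Among downward genes, Podn (25.89 against 25.90), Marveld1 (42.92 against 42.94) and Fbxo38 (30.02 against 30.04) lay just inside, while Plekhh3 (32.111 against 32.110), Zfp598 (30.11 against 30.10) and Irf2bpl (52.78 against 52.76) lay just outside. These 12 genes were chosen among those with an unadjusted p under 0.05, as none passed the adjusted threshold, and their nearest libraries differed by less than 1%.

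Some separated genes were neighbours in the genome. Within 200 kb of each other on one chromosome lay 11 pairs of upward and 14 pairs of downward genes, chosen after seeing which genes were separated. Such pairs were not counted among the other tested genes, so nothing is read from these numbers. Nppb and Nppa are one pair. Mfap5, Apobec1 and Gdf3 lie near each other on chromosome 6, with 48.502 and 2.959 kb between them. There, 1 other tested gene lies between Mfap5 and Apobec1. Cd300a, Cd300ld and Cd300c2 lie near each other on chromosome 11, and Ccl3 and Wfdc17 lie 54.636 kb apart on the same chromosome. Between Cd300a and Cd300ld lies 1 other tested gene, and likewise between Ccl3 and Wfdc17. Downward pairs included Kank2 and Dock6, 1.116 kb apart on chromosome 9, and Tef and Tob2, 21.409 kb apart on chromosome 15. Tob2, an antiproliferative protein of the Tob family, measured 98.03, 104, 88.7 and 104 CPM in the PBS libraries, 59.6, 62.7, 75.2 and 70.7 with Upy-PEG and 55.4, 33.8, 49.02 and 84.1 with antimiR-195, with a log2 fold change of -0.70 ± 0.171 (SE; adjusted p by edgeR = 0.172). Gpx3, Gpx7 and Gpx8, 3 of the 5 tested glutathione peroxidases, were separated upward without lying together, by 0.40, 0.77 and 0.45.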

How the data were processed

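Polyadenylated RNA was extracted with TRIzol and made into TruSeq stranded libraries, per the labels. Per the submitters' processing notes, the authors aligned reads to GRCm38 with STAR and counted them per gene with HTSeq, which gave the deposited counts. DESeq is also named there. Versions, the annotation and the strand setting of the counting are not given in the sources used here, so antisense or overlapping genes cannot be told apart, and genes with near-identical copies are uncertain. The deposited RPKM values are the authors' counts divided by gene length and library total, from which gene lengths were recovered. Per-sample counts and the joint table were equal in 459516 of 459516 cells. Reads on no gene, 6.247% to 8.769%, were left out.

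Counts were tested with edgeR 4.0.16 in R 4.3.3 (filterByExpr by group, TMM, group means of all 12 libraries, 9 residual degrees of freedom, quasi-likelihood test, Benjamini-Hochberg adjustment, threshold 0.05). Each SE was taken as the absolute log2 fold change over the root of F. Separation was read from TMM-scaled CPM with no prior count and is a description, not a test. A fold change, SE or p of a separated gene comes from the same libraries as the separation and does not support it. Symbols and coordinates are GENCODE M21, on GRCm38, which held 36429 of 38293 gene IDs. The test was run on simulated counts with the same dispersion for all genes and no deviating libraries. Such counts check the code and do not measure power in these data. Other settings were DESeq2 1.42.0, RLE factors, library totals alone, no filter, a minimum mean CPM of 1, limma 3.58.1 (voom with sample weights, and trend on log2(RPKM + 0.1)), 2 groups, a length slope covariate, an adjusted p under 0.10, and leaving libraries out.

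The genes and the 53 lists (834 genes, 824 matched, 769 tested) were chosen with earlier results of these data known. Lists are described by counts and medians, without a test. The rule named 15 genes of each sign by lowest p among separated genes past the threshold. As none passed, it took 10 of each sign by lowest p. It added the 5 of each sign with the widest gap at a mean CPM of at least 5, up to 3 separated members of each list, the 3 genes of each sign nearest to the boundary on each side, and Cd68, Gpnmb, Col1a1, Postn, Mki67, Nppa, Myh6, Per1 and Arntl. Other list members and separated genes were named after their values were seen, and some genes named by the rule appear only in the heat map.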

Additional observations from a re-analysis of the deposited data

Results flagged for a closer look

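In 7 of 204 groups of 4 libraries tested over the genes named by rule (3.43%), 1 library stood far from the other 3 (Dixon's test at 95%, gap to the nearest library over the group's range). Chance flags about 1 in 20 such groups. Of the separated lower genes, Rapgef3 was lowest in antimiR-195 replicate 2, at 25.6 CPM against 28.4 to 28.9 in the other antimiR-195 libraries (gap over range 0.833). Kcnn2 was highest in PBS replicate 3, at 23.8 against 19.6 to 20.3 (0.841), and Btbd11 in the same library, at 7.04 against 5.05 to 5.22 (0.915). Fbxo38 was highest in Upy-PEG replicate 1, at 30.02 against 26.96 to 27.37 (0.867), the library that lay just below the PBS values. Of the higher genes, Ftl1 stood at 293 in antimiR-195 replicate 2 against 159.7 to 167 (0.943), and Thbs4 at 21.8 in the same library against 8.48 to 10.3 (0.863). Arntl, which was not separated, stood at 13.6 in antimiR-195 replicate 4 against 2.15 to 3.48 (0.884).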

How the results depend on the processing

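No gene passed an adjusted p of 0.05 in edgeR with RLE factors, totals alone, a mean CPM of at least 1, 2 groups, the length covariate or any library left out, nor in limma-trend, and none passed 0.10 in the main fit. Without a filter 6 passed (Apobec1, Nppa, ENSMUSG00000089672, Per1, Wfdc17 and Cd68), limma voom called 4 and DESeq2 380. Genes lower at an unadjusted p under 0.05 numbered 970, but 628 on totals alone, 1714 with limma voom and 627 with limma-trend on RPKM. With 1 library left out, genes higher numbered 746 to 1553 and lower 430 to 1540, and separated genes 168 to 343 upward and 174 to 460 downward. Totals alone and the deposited RPKM gave 99 and 99 separated downward. Separated genes that differed between the hydrogel groups at an unadjusted p under 0.05 numbered 13, and 33 without antimiR-195 replicates 2 and 3. Every separated gene kept its sign in every fit that gave it a value, which separation largely fixes in advance. Among named genes, 971 values under other settings kept their call and 49 passed the threshold where the main fit did not. All 49 came from DESeq2, out of 68 named genes, as the other settings counted there called no gene. No paired analysis was possible because the labels give no replicate numbers that groups share. Shallow genes such as Osm, Ccl3, Car9 and Tnnt3 rest on few reads.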
